A study of Mus musculus with 12 samples.

Results

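Amino acids enter and leave a cell through carriers in its plasma membrane, and 10 of the carrier genes are described here in a mouse tumour cell line exposed to lactate. They are the glycoprotein gene Slc3a2 and the genes of its partners Slc7a5 and Slc7a11, the cationic amino acid transporter genes Slc7a1, Slc7a2 and Slc7a3, the neutral amino acid transporter genes Slc1a4, Slc1a5 and Slc38a2, and the glycine transporter gene Slc6a9. They were taken by gene symbol from the 42329 entries of the deposited expression table, where each symbol has a single entry. All 10 were among the 13736 genes that reached at least 1 FPKM in at least 3 libraries and were tested. FPKM is the number of sequenced fragments of a gene divided by the length of its model and scaled to the fragments of its library, so levels of different genes can be set side by side.

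MC38, the line used, was derived from a colon adenocarcinoma of a mouse. Its cells carried a guide RNA against Hcar1 (sgHcar1), the gene of a lactate receptor, or a control guide (sgControl). Each of these populations was given saline (PBS) or 20 mM lactate for 24 hours, and the labels state no time for the PBS arm. The 4 groups of 3 libraries are sgControl PBS, sgControl lactate, sgHcar1 PBS and sgHcar1 lactate, 12 libraries in all. The labels do not say whether the sgHcar1 cells are a clone or a pool, how Cas9 was supplied, or whether libraries of the same group were grown as separate cultures. The p-values below therefore reflect the spread between these libraries, which may be technical. The design asks how lactate changes expression in cells of each guide and whether the guide changes that response.

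A cell takes up amino acids that it cannot make, or cannot make fast enough, and many of its carriers are exchangers that let one amino acid in against another. The proteins of Slc7a5 and Slc7a11 reach the cell surface only when paired with the Slc3a2 glycoprotein, the heavy chain of the CD98 complex. Shortage of amino acids and other stresses raise translation of the transcription factor ATF4, which binds composite C/EBP-ATF sites and switches on genes of amino acid uptake and synthesis, and tumour cells often carry more of these carriers than the tissue they came from.

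RefSeq promoter windows of build GRCm38.p6, from 250 bases before to 50 bases after the start site, were at hand for 6 of the 10 genes, in 9 windows. No window was at hand for Slc7a5, Slc7a2, Slc7a3 and Slc1a5. The C/EBP-ATF site was searched on both strands as TGATGNAA, where N is any base. It occurs in 3.97% of all 32851 windows of this length. The windows of Slc7a11 and Slc1a4 held it, and these are shown because they carry every match found among the 6 genes with a window. Each is printed 5′ to 3′ on the strand of its gene, from 250 bases before the start site to base 4 of the transcript, with the matches in capitals.
Slc7a11: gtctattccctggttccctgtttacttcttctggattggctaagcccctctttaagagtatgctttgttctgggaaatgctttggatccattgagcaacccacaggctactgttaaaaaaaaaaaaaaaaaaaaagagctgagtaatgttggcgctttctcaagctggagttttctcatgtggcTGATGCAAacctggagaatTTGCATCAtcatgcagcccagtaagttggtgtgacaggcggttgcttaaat
Slc1a4: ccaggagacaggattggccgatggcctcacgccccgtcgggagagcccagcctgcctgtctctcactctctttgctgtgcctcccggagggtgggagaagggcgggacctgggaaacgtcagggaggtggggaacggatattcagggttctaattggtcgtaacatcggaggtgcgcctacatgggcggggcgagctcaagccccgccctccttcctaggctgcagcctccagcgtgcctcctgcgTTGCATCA
The Slc7a11 stretch is chr3:50443610-50443863 on the minus strand. It holds TGATGCAA at bases -66 to -59 from the start site and the same 8 letters on the opposite strand, written here as TTGCATCA, at bases -47 to -40. Of all windows, 23 (0.0700%) held at least 2 matches. The Slc1a4 stretch is chr11:20332710-20332963 on the minus strand, and its match, on the opposite strand, runs from base -4 to base 4 across the start site. The windows of Slc3a2, Slc6a9, Slc7a1 and Slc38a2 did not hold these letters. The Slc3a2 window, chr19:8713848-8714147, and every Slc6a9 window lie inside the spans of their genes in the GENCODE M21 annotation. The upstream ends of those 2 spans were therefore not searched. The antioxidant response element, searched as TGACNNNGC on both strands, was in windows of Slc6a9, Slc7a1 and Slc38a2 and in 12.4% of all windows, and the E-box CACGTG was in none of the 9 and in 7.15% of all windows. No TGACNNNGC match overlapped a TGATGNAA match. These are matches of letters only, and no binding was measured.

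The targeted gene could not be followed, since Hcar1 was listed at 0 in 11 of the 12 libraries and at 0.0196 FPKM in the remaining one, of sgHcar1 PBS. The files hold no read counts, so depth in reads is unknown. Depth relative to the deepest library, estimated from the steps between low values, ran from 0.746 to 1. The correlation of log2(FPKM + 1) between libraries was 0.990 to 0.992 within groups and 0.765 to 0.947 between them. Of 8 markers of colon epithelium, 7 had an entry, and the defining markers Epcam and Cdx2 were listed at 0 in every group. The summed level of the epithelial markers was 2.98 to 5.16 FPKM in sgControl libraries and 44.9 to 114 FPKM in sgHcar1 libraries, where Krt18 made up nearly all of it (mean 46.2 FPKM in PBS and 112.5 FPKM in lactate). Cdh1 and Krt19 went the other way: Cdh1 averaged 1.72 and 4.53 FPKM and Krt19 1.31 and 0.300 FPKM in sgControl PBS and lactate, and all sgHcar1 libraries listed both at 0. Summed fibroblast markers, 8 genes with Lum and Thy1 listed at 0, were 129 to 150.1 FPKM in the other 3 groups and 66.8 to 72.6 FPKM in sgHcar1 lactate. Single fibroblast markers differed between guides in both directions, since in sgControl PBS against sgHcar1 PBS Col3a1 averaged 67.2 and 1.56 FPKM, Dcn 7.83 and 0.293 FPKM and Pdgfra 5.02 and 0.462 FPKM, while Col1a1 averaged 1.01 and 23.2 FPKM and Col1a2 45.5 and 114.6 FPKM. Leukocyte markers, 6 genes with Cd3e, Itgam and Adgre1 listed at 0 in all libraries, summed to 3.82 to 14.1 FPKM, and the 5 endothelial markers to at most 1.93 FPKM. Any part of these differences in the transporter results was not tested.

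In sgControl cells, lactate was accompanied by higher levels of 9 of the 10 genes and a lower level of Slc7a3. The rises ran from 2.44-fold in FPKM for Slc38a2 to 10.2-fold for Slc6a9. All 9 passed an adjusted p of 0.05 in limma, where 33.9% of the genes tested were called higher, and all 9 did so with at least a 2-fold change of FPKM + 1, where 4.26% of the genes tested did. Slc7a3 was called lower, as were 31.9% of the genes tested. The median change of the 10 genes was 1.80 on the log2(FPKM + 1) scale, against 0.000954 over all genes tested. This scale, used for all tested differences below, understates the change of genes at low levels. In bulk RNA, fewer cells of a type and less RNA per cell cannot be told apart. Summed over the 10 genes, the level was 314 to 333 FPKM in sgControl PBS and 1166 to 1167 FPKM in sgControl lactate.

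In sgHcar1 cells the same treatment went with higher levels of 8 genes, from 1.09-fold for Slc1a5, a change that turned negative under one scaling given below, to 3.89-fold for Slc7a11. By limma, these 8 genes were called higher and Slc7a3 was called lower, where 36.8% and 35.4% of the genes tested were called higher and lower. Slc7a2 was listed at 0 throughout and had no change to test. At least 2-fold rises were called for Slc3a2, Slc7a11, Slc7a1, Slc1a4 and Slc6a9, which is 5 of the 10 genes against 8.83% of the genes tested. On the log2(FPKM + 1) scale, the median change was 1.05 for the 9 genes other than Slc7a2 and 0 over all genes tested. It was 0.93 for the 10 genes, with Slc7a2 counted as a change of 0. The summed level was 471 to 506 FPKM in sgHcar1 PBS and 990 to 997 FPKM in sgHcar1 lactate, so the lactate groups of both guides lay above both PBS groups.

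**Figure D1:**
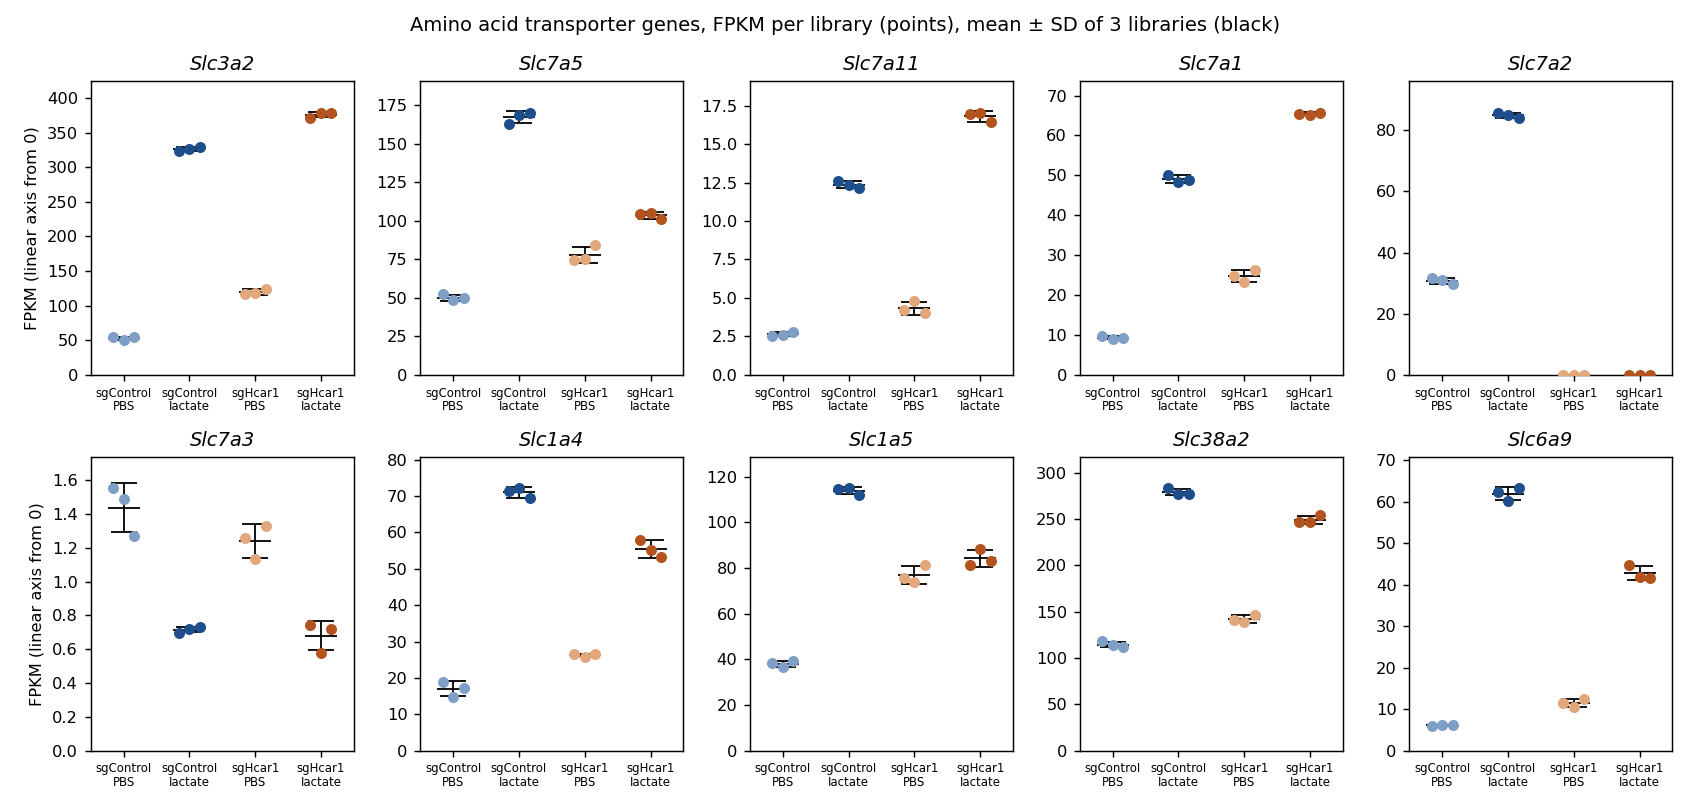
Level in FPKM (linear axes from 0) of each of the 10 genes in the 4 groups; points are libraries and black bars are the mean ± SD of 3 libraries. The lactate libraries lie above the PBS libraries of the same guide for every gene but Slc7a3, which is lower in lactate, Slc7a2, which is listed at 0 in sgHcar1 cells, and Slc1a5, whose sgHcar1 libraries overlap.

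Slc3a2, the heavy chain gene on chr19:8706882-8723369, reached the highest level of the 10 genes in both lactate groups and was second to Slc38a2 in both PBS groups, though its sgControl PBS libraries overlapped those of Slc7a5. Positions here and below are those of the GENCODE M21 annotation of GRCm38, matched by symbol, and the table lists this gene as MGP_C57BL6NJ_G0025218. Its level was 54.3, 50.4 and 54.1 FPKM in the sgControl PBS libraries and 323.5, 326 and 329 FPKM in sgControl lactate. The sgHcar1 libraries were at 117, 118 and 124 FPKM with PBS and at 372, 378 and 379 FPKM with lactate. The groups did not overlap, and their order was sgHcar1 lactate, sgControl lactate, sgHcar1 PBS, sgControl PBS, of which the first pair traded places when libraries were rescaled to equal FPKM sums. With lactate the level rose 6.16-fold in sgControl cells (log2 change 2.60 ± 0.03 SE, adjusted p = 1.22e-12, limma) and 3.14-fold in sgHcar1 cells (1.64 ± 0.03, adjusted p = 1.01e-11). In FPKM as deposited, these were additions of 273 and 256.5, but with every library rescaled to an FPKM sum of 1000000 they were 878 and 576. The difference between the log2 changes was -0.96 ± 0.05 (adjusted p = 6.45e-08).

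Slc7a5 encodes the light chain that carries leucine and other large neutral amino acids, usually in exchange for glutamine, and lies on chr8:121881150-121907694 (MGP_C57BL6NJ_G0034711). Its level was 52.2, 48.3 and 49.6 FPKM in sgControl PBS and 163, 168 and 170.1 FPKM in sgControl lactate. In sgHcar1 PBS it was 74.2, 75.2 and 83.9 FPKM, and in sgHcar1 lactate 105, 105 and 101 FPKM. No groups overlapped, and sgControl lactate stood highest. The rise with lactate was 3.34-fold in sgControl cells (1.72 ± 0.05, adjusted p = 1.53e-10, limma) and 1.33-fold in sgHcar1 cells (0.41 ± 0.05, adjusted p = 1.01e-05). The log2 changes differed by -1.31 ± 0.07 (adjusted p = 7.52e-08), and 117 FPKM was added in sgControl cells against 25.8 FPKM in sgHcar1 cells.

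Slc7a11 encodes the light chain that imports cystine in exchange for glutamate and so feeds glutathione synthesis. It lies on chr3:49892526-50443614 (MGP_C57BL6NJ_G0027610), downstream of the promoter window with the pair of matches shown above. It was at 2.53, 2.62 and 2.80 FPKM in sgControl PBS and 12.6, 12.3 and 12.2 FPKM in sgControl lactate. Its level was 4.19, 4.77 and 3.995 FPKM in sgHcar1 PBS and 17.0, 17.05 and 16.4 FPKM in sgHcar1 lactate. Its levels were low beside those of Slc3a2 and Slc7a5, and no groups overlapped. Lactate went with a 4.67-fold rise in sgControl cells (1.87 ± 0.05, adjusted p = 1.97e-10, limma) and a 3.89-fold rise in sgHcar1 cells (1.75 ± 0.05, adjusted p = 1.61e-10). Slc7a11 is the gene among the risers, leaving aside Slc7a2, whose lactate response was not called different between guides. Its log2 changes differed by -0.13 (95% interval -0.29 to 0.04, adjusted p = 0.167). With a pseudocount of 0.1, which weights low levels more, the difference was -0.24 and was called (adjusted p = 0.0411), and over all the alternatives tried its adjusted p ran from 0.001 to 0.366.

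**Figure D2:**
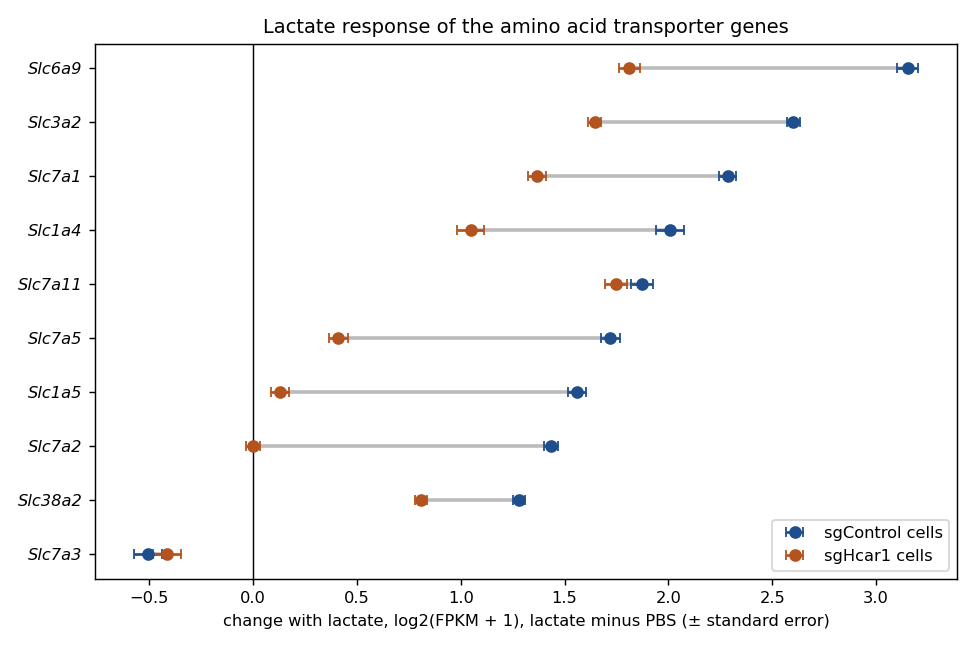
Change of each gene with lactate on the log2(FPKM + 1) scale, lactate minus PBS, with standard errors from limma, in sgControl cells (blue) and sgHcar1 cells (orange); grey lines join the values of a gene. For the 8 genes other than Slc7a2 that rose in sgControl cells, the sgHcar1 value lies left of the sgControl value. The gap is 0.13 for Slc7a11 and 1.43 for Slc1a5. The sgHcar1 value of Slc7a2 is 0 only because all sgHcar1 libraries listed the gene at 0. Both Slc7a3 values are below 0.

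Because Slc3a2 is shared by several light chains, the level of each light chain gene was set against that of Slc3a2 in the same library. Slc7a5 stood at 94.6% ± 2.50 (SD, n = 3) of the Slc3a2 level in sgControl PBS and 51.3% ± 0.795 in sgControl lactate. In sgHcar1 cells it was at 64.9% ± 2.32 in PBS and 27.5% ± 0.823 in lactate. Slc7a5 thus rose with lactate in cells of both guides while its level per Slc3a2 was lower.

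Slc7a6, not among the 10 genes but a further light chain, which exchanges cationic for neutral amino acids, was at 29.4 FPKM in sgControl PBS, 36.3 FPKM in sgControl lactate, 9.59 FPKM in sgHcar1 PBS and 14.9 FPKM in sgHcar1 lactate on average. That is 55.6%, 11.1%, 8.01% and 3.96% of the Slc3a2 level, in that order. Slc7a11 kept within a narrow band, at 5.02%, 3.80%, 3.62% and 4.47% of Slc3a2 on average. The light chain genes Slc7a7, Slc7a8 and Slc7a10 added at most 0.690% of the Slc3a2 level in any library.

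Together the light chain genes amounted to 156% ± 3.11 of Slc3a2 in sgControl PBS, 66.3% ± 1.06 in sgControl lactate, 76.6% ± 1.77 in sgHcar1 PBS and 36.0% ± 1.03 in sgHcar1 lactate. The light chains therefore exceeded the heavy chain in sgControl PBS and stayed below it in the other groups, in FPKM. The log2 ratio fell by 1.23 with lactate in sgControl cells and by 1.09 in sgHcar1 cells, with no overlap of libraries in either case. An exact two-sided permutation test of 3 against 3 libraries gave p = 0.1 for each, the smallest value that this design allows. Between guides, over 6 against 6 libraries, the ratio was lower by 0.95 in sgHcar1 cells, although the libraries overlapped (exact permutation p = 0.0433, and 0.1 after Benjamini-Hochberg adjustment over the 3 comparisons). That comparison pools both treatments, which differ in the ratio. Within a treatment, a split chosen after seeing the data, the guides did not overlap, and sgHcar1 cells were lower by 1.02 in PBS and by 0.88 in lactate (exact permutation p = 0.1 for each, the smallest value 3 against 3 libraries allow). With Slc7a5 and Slc7a11 alone, the change in sgControl cells was -0.86, that in sgHcar1 cells was -1.10, and the pooled difference between guides was -0.66 (exact permutation p = 0.0628).

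**Figure D3:**
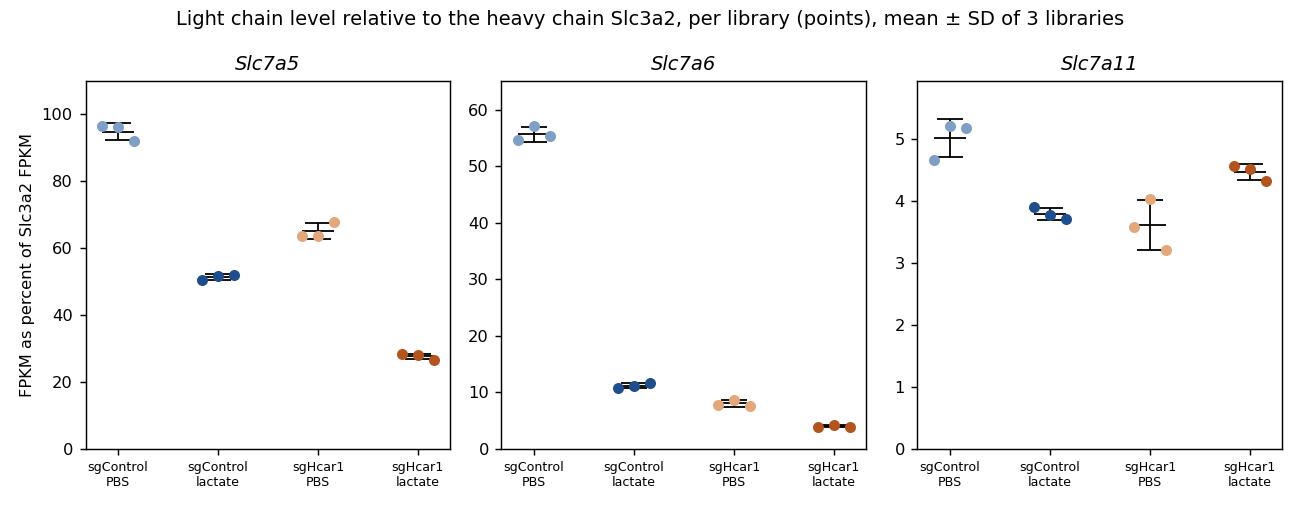
FPKM of 3 light chain genes as a percentage of Slc3a2 FPKM in the same library (linear axes from 0), by group; points are libraries and bars are the mean ± SD of 3 libraries. Slc7a5 and Slc7a6 are lower in lactate than in PBS within each guide. Slc7a11 stays between 3.22% and 5.21%, lower in lactate in sgControl cells and higher in lactate in sgHcar1 cells.

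The cationic transporter genes Slc7a1, Slc7a2 and Slc7a3 encode carriers of arginine, lysine and ornithine that work without a heavy chain. Slc7a1, the broadly expressed one (chr5:148327410-148399904, MGP_C57BL6NJ_G0030832), was at 9.70, 8.87 and 9.29 FPKM in sgControl PBS and 50.1, 48.4 and 48.7 FPKM in sgControl lactate. The sgHcar1 libraries had 24.9, 23.2 and 26.2 FPKM with PBS and 65.5, 65.1 and 65.8 FPKM with lactate. No groups overlapped, and the order was that of Slc3a2. It rose 5.29-fold in sgControl cells (2.29 ± 0.04, adjusted p = 1.21e-11, limma) and 2.64-fold in sgHcar1 cells (1.37 ± 0.04, adjusted p = 2.11e-10). The log2 changes differed by -0.92 ± 0.06 (adjusted p = 4.51e-07), while the additions were 39.8 and 40.7 in FPKM as deposited, and 128 and 89.4 with every library rescaled to an FPKM sum of 1000000.

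Slc7a2, known for carrying arginine in liver and in activated macrophages, lies on chr8:40862396-40922308 (MGP_C57BL6NJ_G0034051). Its level was 31.6, 31.0 and 29.8 FPKM in sgControl PBS and 85.8, 84.9 and 84.0 FPKM in sgControl lactate, a 2.76-fold rise (1.44 ± 0.03, adjusted p = 4.51e-11, limma). Each of the 6 sgHcar1 libraries listed it at 0, so the guide groups shared no value and no fold is given. It passed the filter on low values through its sgControl libraries alone, so a difference between guides was fixed by the filter, and no test of it is given. Of the table's entries, 10 were listed at 0 in all 6 sgHcar1 libraries and reached 20 FPKM in all 6 sgControl libraries, and 4 showed the reverse. In GENCODE M21 an exon of the long noncoding RNA Gm26584 overlaps Slc7a2 on the opposite strand. The strand setting of the counting is not given in the sources used here, so reads of this pair cannot be told apart.

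Slc7a3, best known from brain, was low throughout and moved the other way (chrX:101079210-101086020, MGP_C57BL6NJ_G0036448). It was at 1.55, 1.49 and 1.27 FPKM in sgControl PBS and 0.699, 0.719 and 0.729 FPKM in sgControl lactate. With the Hcar1 guide it was at 1.26, 1.13 and 1.33 FPKM in PBS and at 0.742, 0.580 and 0.720 FPKM in lactate. Lactate and PBS libraries were apart within each guide, but the guides overlapped within each treatment. The level in lactate was 0.498 of that in PBS in sgControl cells (-0.50 ± 0.07, adjusted p = 5.52e-05, limma) and 0.548 in sgHcar1 cells (-0.42 ± 0.07, adjusted p = 0.000191). The difference between these changes was 0.09 (95% interval -0.12 to 0.30, adjusted p = 0.456).

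The makeup of the cationic group differed between guides. In sgControl PBS, Slc7a2 made up 74.2% ± 0.677 (SD, n = 3) of the summed FPKM of the 3 genes and Slc7a1 22.4% ± 0.821. In sgControl lactate these shares were 63.0% ± 0.278 and 36.4% ± 0.288. In sgHcar1 cells Slc7a1 made up 95.2% ± 0.0958 in PBS and 99.0% ± 0.128 in lactate. The summed level was 41.5 ± 1.27 FPKM in sgControl PBS, 134.8 ± 1.69 FPKM in sgControl lactate, 26.02 ± 1.62 FPKM in sgHcar1 PBS and 66.1 ± 0.380 FPKM in sgHcar1 lactate. Although Slc7a1 was higher in sgHcar1 cells in both treatments, the sum was lower than in sgControl cells of the same treatment, with no overlap of libraries. The lower sum follows from Slc7a2, listed at 0 in all sgHcar1 libraries, and is not a separate result.

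**Figure D4:**
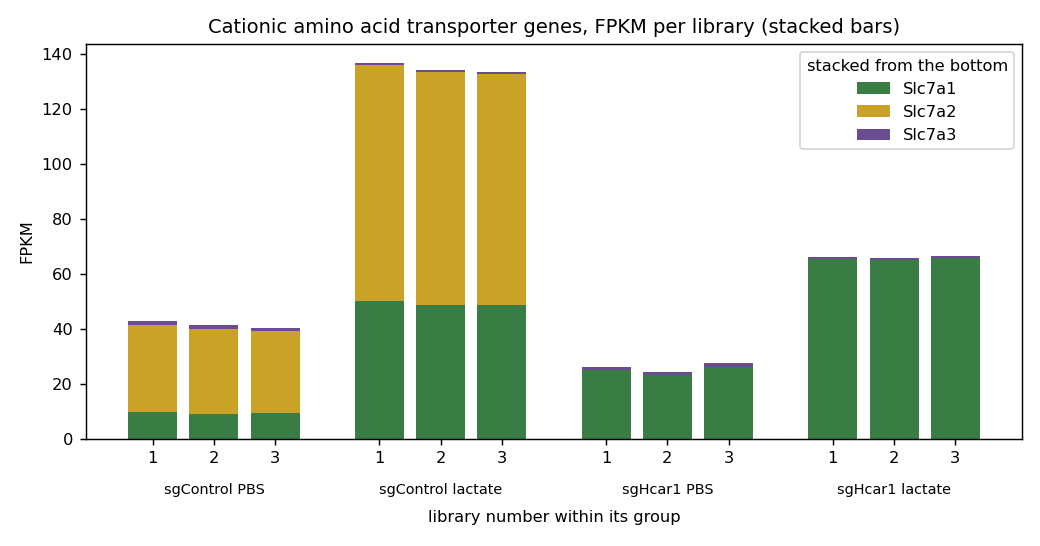
FPKM of Slc7a1, Slc7a2 and Slc7a3 stacked from the bottom for each of the 12 libraries (linear axis from 0), numbered within the 4 groups. The Slc7a2 segment is present in the 6 sgControl libraries and missing in the 6 sgHcar1 libraries, and the bars of sgControl lactate, at 133.5 to 137 FPKM, are the tallest.

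Slc1a4 and Slc1a5 encode sodium-dependent exchangers of alanine, serine, cysteine and related neutral amino acids, and that of Slc1a5 also takes in glutamine. Slc1a4 (chr11:20302180-20332713, MGP_C57BL6NJ_G0018459), whose promoter stretch is shown above, was at 18.9, 14.8 and 17.2 FPKM in sgControl PBS and 71.4, 72.2 and 69.4 FPKM in sgControl lactate. In sgHcar1 PBS the values were 26.5, 25.9 and 26.5 FPKM, and in sgHcar1 lactate 58.0, 55.1 and 53.2 FPKM. No groups overlapped, and the order was sgControl lactate, sgHcar1 lactate, sgHcar1 PBS, sgControl PBS. The rise was 4.18-fold in sgControl cells (2.01 ± 0.07, adjusted p = 7.16e-10, limma) and 2.11-fold in sgHcar1 cells (1.05 ± 0.07, adjusted p = 7.82e-08), with a difference of -0.96 ± 0.09 (adjusted p = 8.37e-06).

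Slc1a5 (chr7:16781340-16798274, MGP_C57BL6NJ_G0032161) showed the smallest called rise of the 10 genes in sgHcar1 cells. Its level was 38.5, 36.6 and 39.2 FPKM in sgControl PBS and 115, 115 and 112 FPKM in sgControl lactate. The sgHcar1 PBS libraries had 75.6, 73.8 and 81.5 FPKM and the sgHcar1 lactate libraries 81.2, 88.3 and 83.3 FPKM, so these groups overlapped. It rose 2.99-fold in sgControl cells (1.56 ± 0.04, adjusted p = 1.78e-10, limma). In sgHcar1 cells the change was 1.09-fold (0.13 ± 0.04, adjusted p = 0.019). That call did not hold in several alternatives: the adjusted p was 0.0611 without sgHcar1 PBS replicate 1, 0.0794 without sgHcar1 PBS replicate 2, 0.0803 without sgHcar1 lactate replicate 2, 0.065 with no filter and 0.0667 with only the groups compared, within a range of 0.0036 to 0.312 over all of them. The log2 change itself turned to -0.06 (adjusted p = 0.312) when each library was rescaled to an FPKM sum of 1000000, a scaling that moved the median of all genes by -0.12 in this comparison. The difference between the guides' log2 changes, -1.43 ± 0.06 (adjusted p = 2.41e-08), was called under every alternative tried.

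Slc38a2 encodes a sodium-coupled carrier of small neutral amino acids that is known to increase in amino acid shortage (chr15:96687392-96699730, MGP_C57BL6NJ_G0022681). It had the highest level of the 10 genes in both PBS groups, at 118, 114 and 112 FPKM in sgControl PBS and 140.5, 138 and 146 FPKM in sgHcar1 PBS. The level was 283, 277 and 277 FPKM in sgControl lactate and 246, 246 and 253.9 FPKM in sgHcar1 lactate, and no groups overlapped. Its rise was the smallest of the 9 in sgControl cells, 2.44-fold (1.28 ± 0.03, adjusted p = 4.6e-11, limma), and was 1.76-fold in sgHcar1 cells (0.81 ± 0.03, adjusted p = 7.26e-10). The difference of -0.47 ± 0.04 (adjusted p = 3.57e-06) was the smallest of those called.

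Slc6a9, the gene of a sodium- and chloride-coupled glycine transporter best known from glia, showed the largest relative rise of the 10 genes in sgControl cells (chr4:117834506-117875198, MGP_C57BL6NJ_G0029078). It was at 5.90, 6.12 and 6.23 FPKM in sgControl PBS and 62.3, 60.3 and 63.3 FPKM in sgControl lactate. Levels with the Hcar1 guide were 11.5, 10.6 and 12.4 FPKM in PBS, against 44.8, 41.9 and 41.7 FPKM in lactate. The 4 groups were apart, and the order was that of Slc1a4. The rise was 10.2-fold in sgControl cells (3.15 ± 0.05, adjusted p = 5.47e-12, limma), the change ranked 19 from the top among 13736 genes, and 3.72-fold in sgHcar1 cells (1.81 ± 0.05, adjusted p = 9.58e-11). The log2 changes differed by -1.34 ± 0.07 (adjusted p = 1.16e-07). In GENCODE M21, exons of B4galt2, Ccdc24 and Gm17114 overlap Slc6a9 on the opposite strand, and reads shared with these genes cannot be told apart here.

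Set side by side, the lactate response of 7 of the 9 genes other than Slc7a2 was lower in sgHcar1 than in sgControl cells. This is by the test of the difference in limma, where 28.7% of the genes tested were called lower. None was called higher, where 30.4% of the genes tested were. A difference of at least 2-fold was called for Slc7a5, Slc1a5 and Slc6a9 among these 9 genes, against 3.59% of the genes tested. The median difference was -0.96 for the 9 genes and 0.01 over all genes tested. Slc7a2 is left out, since every sgHcar1 library listed it at 0 and its difference is only its rise in sgControl cells with the sign changed. The 7 genes with a lower response were all called higher in sgHcar1 PBS, as was Slc7a11. For Slc3a2 and Slc7a1 the additions in sgHcar1 against sgControl cells were 256.5 against 273 and 40.7 against 39.8 in FPKM as deposited. With equal FPKM sums they were 576 against 878 and 89.4 against 128, so how alike they are depends on the scaling. For Slc7a5, Slc1a4, Slc1a5, Slc6a9 and Slc38a2 the addition in sgHcar1 cells was smaller under both scalings. In FPKM as deposited it was 25.8 against 117 for Slc7a5, 29.1 against 54.0 for Slc1a4, 7.27 against 75.9 for Slc1a5, 31.3 against 55.9 for Slc6a9 and 107 against 165 for Slc38a2. These additions are differences of group means and were not tested.

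Between guides in PBS, leaving aside Slc7a2, 8 of the other 9 genes were called higher in sgHcar1 cells in limma and 0 were called lower, where 38.2% and 38.4% of the genes tested were called higher and lower. On the scale of FPKM + 1, Slc3a2 and Slc7a1 passed 2-fold, 2 of the 9 genes against 8.68% of the genes tested. Their levels in sgHcar1 PBS were 2.26 and 2.67 times those in sgControl PBS (log2 differences 1.16 ± 0.03 and 1.32 ± 0.04, adjusted p = 6.45e-11 and 1.77e-10). Slc1a5 was 2.02-fold higher in FPKM (1.00 ± 0.04), Slc6a9 1.89-fold, Slc7a11 1.63-fold, Slc7a5 1.55-fold, Slc1a4 1.55-fold and Slc38a2 1.24-fold. Slc7a3 was not called (-0.12, 95% interval -0.27 to 0.03, adjusted p = 0.131). These comparisons use the same PBS libraries as the lactate responses above, so a higher level in sgHcar1 PBS enters both.

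In lactate, the 9 genes other than Slc7a2 had calls in both directions. Slc3a2, Slc7a1 and Slc7a11 were called higher in sgHcar1 cells, 3 of 9 where 41.3% of the genes tested were called higher, and their levels were 1.15, 1.33 and 1.36 times those in sgControl lactate (log2 differences 0.21 ± 0.03, 0.41 ± 0.04 and 0.41 ± 0.05 in limma). Slc7a5, Slc1a4, Slc1a5, Slc6a9 and Slc38a2 were called lower, 5 of 9 where 40.9% of the genes tested were called lower. With only 9 genes, both counts are near these shares and are not read as a result about the genes. The level in sgHcar1 lactate was 0.620 of that in sgControl lactate for Slc7a5, 0.691 for Slc6a9, 0.739 for Slc1a5, 0.780 for Slc1a4 and 0.891 for Slc38a2. Slc7a3 again was not called (-0.03, 95% interval -0.18 to 0.12, adjusted p = 0.681). The median difference was -0.17 for these 9 genes and 0.01 over all genes tested. The higher calls depended on the scaling. FPKM sums were larger in sgHcar1 lactate (411996 to 421984) than in sgControl lactate (310109 to 317330.3), and after rescaling each library to a sum of 1000000 the median of all genes moved by -0.37, Slc3a2 was lower in sgHcar1 cells (-0.21, adjusted p = 0.000189), and Slc7a1 and Slc7a11 were not called (0.0026 and 0.03, adjusted p = 0.961 and 0.656). Relative to the median of all genes, Slc3a2, Slc7a1 and Slc7a11 were higher by 0.16, 0.37 and 0.40 after that rescaling.

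Most other carriers were hardly detected. Of 36 other plasma membrane amino acid transporter genes, 7 passed the filter, and the remaining 29 reached at most 1.35 FPKM in any library. In sgControl cells, lactate went with higher levels of 4 of the 7 and lower levels of 3, with a median of 0.29 on the log2(FPKM + 1) scale, and in sgHcar1 cells with 3 higher, 2 lower and 2 not called. The 2 not called, Slc6a15 and Slc16a10, were at or near 0 in sgHcar1 cells and passed the filter through sgControl libraries alone. Slc38a4, called lower in sgControl cells, was near 0 there and passed through sgHcar1 libraries alone. Over all genes tested, 33.9% were called higher and 31.9% lower in sgControl cells, and 36.8% and 35.4% in sgHcar1 cells. Slc38a1, a glutamine carrier related to Slc38a2, rose from 21.8 to 46.5 FPKM in sgControl cells (1.06 ± 0.06) and was at 1.23 and 1.78 FPKM in sgHcar1 PBS and lactate (0.32 ± 0.06). Slc6a15, a carrier of branched-chain amino acids and proline, resembled Slc7a2: it rose from 11.6 to 24.3 FPKM in sgControl cells (1.00 ± 0.04), and every sgHcar1 library listed it at 0. Slc38a4 had the opposite guide difference, at 0.144 and 0.0252 FPKM in sgControl PBS and lactate and 20.6 and 12.1 FPKM in sgHcar1 PBS and lactate. Slc6a6, the taurine transporter gene, was at 44.5 and 41.0 FPKM in sgControl cells and 29.8 and 36.2 FPKM in sgHcar1 cells, a lactate change of -0.11 ± 0.04 and 0.27 ± 0.04.

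Of 8 genes of amino acid carriers of the lysosomal membrane, 7 had an entry and 6 passed the filter, and 2 were called higher with lactate in sgControl cells, a share near the 33.9% of all genes tested. These were Slc38a7, a lysosomal glutamine exporter, from 8.76 to 32.5 FPKM (1.78 ± 0.06), and Ctns, the cystine exporter, from 10.5 to 19.6 FPKM (0.84 ± 0.06). In sgHcar1 cells Slc38a7 (1.39 ± 0.06) and Ctns (0.73 ± 0.06) were again called higher and Pqlc2, a cationic amino acid exporter, was called lower (-0.30 ± 0.06), where 36.8% and 35.4% of the genes tested were called higher and lower.

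Among 17 genes that sense amino acids or act on transporter genes, 12 were called higher and 5 lower with lactate in sgControl cells, with a median of 1.28, and 11 were called higher and 5 lower in sgHcar1 cells, with a median of 0.38. The shares over all genes tested were 33.9% higher and 31.9% lower in sgControl cells and 36.8% and 35.4% in sgHcar1 cells. By the test of the difference, 11 of the 17 had a lower response in sgHcar1 cells and 3 a higher one, where 28.7% and 30.4% of the genes tested did. Among these 3, Sesn3 was listed at 0 in all sgHcar1 libraries, so its difference of 0.55 is only its fall in sgControl cells with the sign changed. Atf4 messenger RNA was at 220.9 FPKM in sgControl PBS, 767.5 FPKM in sgControl lactate, 495 FPKM in sgHcar1 PBS and 632 FPKM in sgHcar1 lactate, the order seen for Slc7a5, Slc1a4, Slc1a5, Slc6a9 and Slc38a2. Its changes of 1.79 ± 0.03 and 0.35 ± 0.03 differed by -1.44. Trib3, a pseudokinase gene that ATF4 induces, differed most between guides, at 4.61 ± 0.08 and 1.10 ± 0.08. Ddit3, the gene of the stress factor CHOP, changed by 3.92 ± 0.06 and 2.54 ± 0.06, and Sesn2, a leucine sensor gene, by 2.36 ± 0.08 and 0.67 ± 0.08. Cebpb, a gene of a C/EBP partner of ATF4, changed by 2.12 ± 0.06 and 1.84 ± 0.06.

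**Figure D5:**
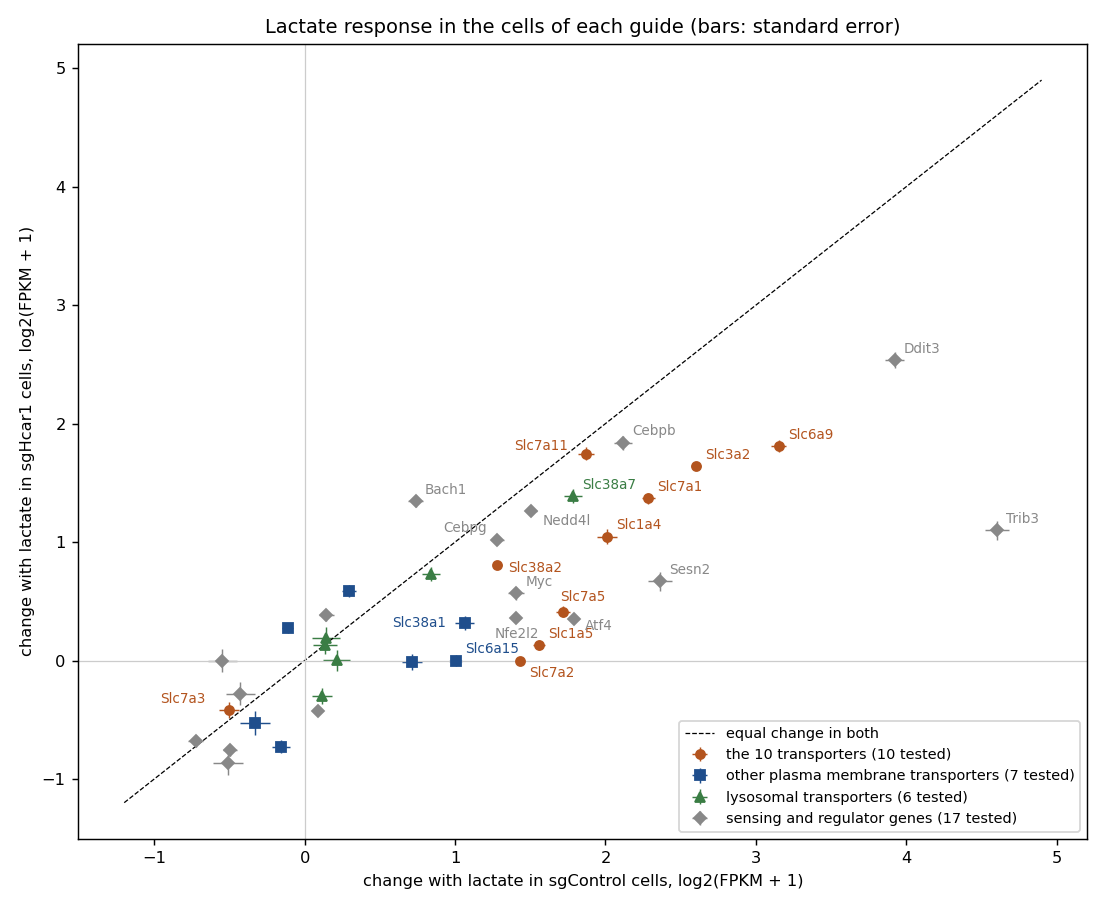
Change with lactate in sgControl cells (horizontal) against that in sgHcar1 cells (vertical), both on the log2(FPKM + 1) scale with standard errors, for the 10 transporter genes and for the tested genes of 3 further lists; the dashed line marks equal change. Of the 10 genes, Slc7a11 and Slc7a3 lie near the line, and Slc7a2, Slc1a5 and Slc7a5 lie far below it beside Atf4.

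The genes whose pattern over the 12 libraries was most like that of a transporter gene were found by Pearson's r of log2(FPKM + 1). These values describe 4 groups of 3 libraries rather than 12 independent conditions. For Slc7a11 they were Hspa5, Ppp1r15a and Dnajc3 (r = 0.997, 0.996 and 0.996), of which Hspa5 encodes the main chaperone of the endoplasmic reticulum and had a mean of 137 FPKM in sgControl PBS, 1329 FPKM in sgControl lactate, 289.6 FPKM in sgHcar1 PBS and 2511 FPKM in sgHcar1 lactate. For Slc3a2 they were Lars, the leucyl-tRNA synthetase gene, Gadd45a and Mib2 (r = 0.997, 0.997 and 0.995), and for Slc7a1 they were Dgkd, Emp2 and Ddit3 (r = 0.999, 0.998 and 0.998). Slc7a5 was most like Cdr2l, Trim46 and Xdh (r = 0.995, 0.985 and 0.984). Slc6a9 and Slc38a2 were each other's closest gene (r = 0.998), both followed by Tgif1 and Kdm4a, and Slc1a4 was most like Wfs1, Tgif1 and Arhgef2 (r = 0.997, 0.996 and 0.994). Slc7a2 was closest to Zbtb7c, Ptprk and Slc6a15, which were at or near 0 in sgHcar1 cells, and Slc7a3 to Slbp, Zfp207 and Gltp (r = 0.983, 0.980 and 0.978).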

How the data were processed

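Per the labels' protocols, RNA was extracted with Trizol and 1 µg of total RNA went into TruSeq libraries. Per the submitters' processing notes, reads were processed with HISAT2 2.0.5 and featureCounts 1.5.0-p3, and the build was GRCm38. The role of each tool, the strand setting and the filters are not given in the sources used here. The authors deposited 1 table of FPKM, with 1 value per gene and library. Its gene identifiers are those of the C57BL/6NJ annotation of Ensembl. The letters and numbers of a column name gave its group and replicate (a first letter C was read as sgControl, and K, by elimination, as sgHcar1), and 0 value columns were left unused. No library pair had identical values. Because FPKM holds neither counts nor gene lengths, no count test was run and no interval for counting error is given.

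The deposited FPKM went without rescaling into limma 3.58.1 (R 4.3.3) on the scale log2(FPKM + 1), for genes that reached 1 FPKM in 3 or more libraries. The model had 1 mean for each of 4 groups over all 12 libraries, no replicate block and an intensity trend. It was two-sided, with Benjamini-Hochberg adjustment over all tested genes within each of 5 contrasts and a threshold of 0.05. The fit was also run on data simulated with independent noise around the sgControl PBS means. The outcome is not reported here, and such data do not cover genes listed at 0 or shifts from scaling. Ratios of light chains to Slc3a2 were tested with exact permutation tests. All 10 genes passed the filter, so the permutation test planned for genes below it was not needed.

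The 10 genes, the lists and the alternatives were chosen with earlier results of these data known. Named were all 10 genes, up to 4 called genes of each further list by size of change in a contrast, and the 3 genes with a standard symbol and a mean of at least 1 FPKM whose pattern was most like each of the 10. The genes most like Slc1a5 are not reported here. Slc7a6 to Slc7a8 and Slc7a10 are named as light chains, and Krt18, Cdh1, Krt19, the fibroblast markers, Sesn3, Slc16a10 and Slc6a6 were named after their values were seen. Alternatives were a pseudocount of 0.1, no filter, a mean FPKM of 5 or more, scaling by median ratios, an FPKM sum of 1000000, no intensity trend, a replicate block, only the groups compared, an added 2-fold rule, and leaving out each library in turn. Same-numbered libraries did not deviate together. Promoter windows came from RefSeq (GRCm38.p6) and gene positions from GENCODE M21. Ratios, likeness and figures used Python 3.11.15, numpy 2.4.6, pandas 2.3.3, scipy 1.17.1 and matplotlib 3.10.9.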

Additional observations from a re-analysis of the deposited data

Results flagged for a closer look

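The lactate response differed between the guides for 7 of the 9 genes other than Slc7a2, by the test of the difference in limma. Of the genes tested, 28.7% were called lower and 30.4% higher. On the log2(FPKM + 1) scale, the response in sgHcar1 cells minus that in sgControl cells was -1.31 for Slc7a5, -0.92 for Slc7a1, -0.96 for Slc3a2, -0.96 for Slc1a4, -1.43 for Slc1a5, -1.34 for Slc6a9 and -0.47 for Slc38a2. The Slc7a2 value comes from the rise in sgControl cells alone, as the gene was listed at 0 in all 6 sgHcar1 libraries.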

How the results depend on the processing

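No filter, a mean FPKM of 5 or more, no intensity trend, the replicate block and only the groups compared leave each log2 change as it was. They act on p-values alone and cannot change a direction, nor can leaving out a library of a group outside the comparison. The counts below include these, and also Slc7a2, which all sgHcar1 libraries listed at 0. Of 985 values of single genes over 50 results and the alternatives tried, 970 kept their direction and their side of the threshold, 7 lost the call, 4 gained it and 4 changed direction. Of these 4, 2 had been called, and both changed with rescaling to an FPKM sum of 1000000: Slc1a5 with lactate in sgHcar1 cells (-0.055, adjusted p = 0.312, limma) and Slc3a2 between guides in lactate (-0.21, adjusted p = 0.000189). The other 2, never called, were Slc7a3 for the difference under that rescaling (-0.014) and between guides in lactate without sgHcar1 lactate replicate 2 (0.012). That scaling moved the median of all genes by 0.04, -0.12, -0.21, -0.16 and -0.37 for lactate in sgControl, lactate in sgHcar1, their difference, and the guides in PBS and in lactate. The share of higher genes among those called went from 51.5% to 55.6%, 50.9% to 40.0%, 51.4% to 30.1%, 49.9% to 38.6% and 50.3% to 31.7%. It also ended the calls of Slc7a1 and Slc7a11 between guides in lactate and gave calls to Slc7a11 for the difference (-0.44, adjusted p = 0.001) and to Slc7a3 between guides (-0.31 in PBS, -0.32 in lactate). With at least a 2-fold change required as well, the genes called numbered 5 for lactate in sgHcar1 and 4 for the difference. They numbered 3 for the guides in PBS and 1 for the guides in lactate. All but the first of these counts include Slc7a2, and the 1 between guides in lactate is Slc7a2 alone. Of the genes tested, 8.83% were called higher at 2-fold with lactate in sgHcar1 cells, and 3.59% lower for the difference. Between guides, 8.68% were called higher and 11.5% lower in PBS, and 12.8% and 14.5% in lactate. With Slc7a5 and Slc7a11 as the only light chains, the ratio to Slc3a2 changed by -0.86 with lactate in sgControl cells. The other lost calls are those of Slc1a5 in sgHcar1 cells given above. The causes were not tested.

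Replicate numbers did not pair the libraries, as deviations of same-numbered libraries correlated by -0.0408 to 0.085. With the replicate block, no call changed in any of the 5 comparisons. Slc7a3 has no value under a mean of at least 5 FPKM. Read depth is unknown, which limits low genes such as Slc7a3 most.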
